A study of Mus musculus with 30 samples.

Results

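The genes described here belong to the hypoxia-inducible factor (HIF) pathway. They are the alpha subunit genes Hif1a and Epas1, the prolyl hydroxylase genes Egln1 and Egln3, and the HIF target genes Vegfa, Bnip3, Ankrd37, Ndrg1 and P4ha1. They were chosen by name, 9 of the 55487 genes in the count table, and all 9 were found and passed the filter on low counts. The choice was made with earlier results of these data known. Counts of members set beside the share of all genes therefore describe these genes and do not test the pathway. HIF is a transcription factor made of an alpha and a beta subunit. When oxygen is ample, prolyl hydroxylases mark the alpha subunit for destruction through the VHL ubiquitin ligase, so much of its control lies at the level of protein, which these data do not measure. When the alpha subunit is stable, HIF binds short DNA elements and raises genes for glucose uptake, glycolysis, mitophagy, vessel growth and collagen maturation, in skeletal muscle as in other tissues.

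C2C12 is a mouse myoblast line, labelled wild type here, that fuses into myotubes when serum is lowered. Cultures were differentiated for 4 days in low glucose medium with 2% horse serum and then treated for 4 days in low glucose medium. The 5 groups of 6 libraries, labelled with a time of 8 days, were myotubes kept in 2% horse serum (2% HS), serum deprived myotubes (SD), and serum deprived myotubes given 100 nM metformin (MET), 500 nM leucine (LEU), or both at these doses (MET+LEU). Metformin is a diabetes drug that acts on mitochondria, and leucine is a branched-chain amino acid that stimulates protein synthesis. The comparisons ask whether removal of serum, used as an atrophy stimulus, moved these genes, and whether MET, LEU or MET+LEU moved them in serum-free myotubes. All cultures come from 1 cell line, and the labels do not say whether the replicates of a group were separate cultures, so the p-values measure the spread between these libraries, which may be technical. Oxygen was not among the labelled variables.

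Libraries held 12784960 to 19604103 counts. The summed level of 9 myotube markers was 30975 to 44112 CPM (counts scaled to the size of the library) over the 30 libraries, and all 9 were detected in each group. The 5 endothelial markers reached a summed level of at most 1.31 CPM in a library, and the 4 blood and macrophage markers reached 1.53 to 3.73 CPM. In MET+LEU replicate 6 the mitochondrial ribosomal RNAs took 7.64% of the counts, against 0.219% to 0.760% in the other libraries. Values of the members that this library moves across the threshold are given with and without it. The exception is Egln1 in MET+LEU vs. MET, for which only the loss of the call is stated. In bulk RNA, fewer cells of a type and less RNA per cell cannot be told apart.

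Upstream sequence of the members was read from the RefSeq promoter table of build GRCm38.p6, which holds 7 of the 9 genes and not Epas1 or Ndrg1. The core letters of the HIF binding element, ACGTG and GCGTG, were searched on both strands in the 250 bases before each start site. Matches on opposite strands can share bases, and each was counted. At least 1 match was found in 7 of 8 windows, against 12679 of all 32851 windows of this length in the table (38.6%). The 5 windows below are those of Bnip3, Ankrd37, P4ha1 and Vegfa, which were lower in SD vs. 2% HS, and of Egln3. Egln3 did not pass the threshold there, but was lower in MET, LEU and MET+LEU vs. 2% HS. Windows of Hif1a, with 3 matches, and Egln1, with 2, are not printed, although both genes were also lower in SD. The printed windows therefore do not compare matches with calls. Each is printed 5′ to 3′ along the gene, and capitals mark the matched letters.
Bnip3, chr7:138909507-138909756, minus strand, 5 matches: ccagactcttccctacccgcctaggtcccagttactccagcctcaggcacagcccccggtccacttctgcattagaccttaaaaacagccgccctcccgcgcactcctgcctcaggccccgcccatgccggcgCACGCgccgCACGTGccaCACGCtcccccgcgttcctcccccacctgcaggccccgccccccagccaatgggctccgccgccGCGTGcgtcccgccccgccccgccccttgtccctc
Ankrd37, chr8:45999851-46000100, minus strand, 4 matches: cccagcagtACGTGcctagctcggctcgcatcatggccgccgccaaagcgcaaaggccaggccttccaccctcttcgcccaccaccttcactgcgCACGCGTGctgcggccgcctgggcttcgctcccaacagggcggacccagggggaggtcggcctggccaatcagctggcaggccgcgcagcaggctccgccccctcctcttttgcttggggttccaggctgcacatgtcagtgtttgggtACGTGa
P4ha1, chr10:59323046-59323295, plus strand, 3 matches: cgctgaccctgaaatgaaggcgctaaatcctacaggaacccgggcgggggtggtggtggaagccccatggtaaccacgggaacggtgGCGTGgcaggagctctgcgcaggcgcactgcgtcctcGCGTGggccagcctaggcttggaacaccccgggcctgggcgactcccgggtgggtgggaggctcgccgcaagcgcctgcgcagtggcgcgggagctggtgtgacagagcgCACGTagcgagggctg
Egln3, chr12:54203875-54204124, minus strand, 1 match: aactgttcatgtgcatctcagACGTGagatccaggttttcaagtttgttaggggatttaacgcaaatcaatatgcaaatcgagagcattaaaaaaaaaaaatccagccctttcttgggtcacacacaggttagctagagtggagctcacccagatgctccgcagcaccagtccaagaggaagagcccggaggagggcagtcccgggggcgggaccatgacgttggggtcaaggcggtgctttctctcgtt
Vegfa, chr17:46032378-46032627, minus strand, 0 matches: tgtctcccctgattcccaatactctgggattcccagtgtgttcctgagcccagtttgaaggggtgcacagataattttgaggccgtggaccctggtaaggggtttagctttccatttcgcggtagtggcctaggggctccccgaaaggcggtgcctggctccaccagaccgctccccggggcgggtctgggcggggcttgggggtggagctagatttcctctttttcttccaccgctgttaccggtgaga

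The Bnip3 window holds the palindrome CACGTG, read as a match on each strand at positions -108 and -107 from the start site. The Ankrd37 matches lie between positions -241 and -6, and the P4ha1 matches between -163 and -16. The Egln3 match lies at -229. The Vegfa window has neither set of letters, which says only that they are not in this stretch, and a window at another Vegfa start held 2 matches. Exons of these genes in the GENCODE M21 annotation cover 13 bases of the Bnip3 window and 17 bases of the Ankrd37 window. They cover 70 bases of the Egln1 window and 218 bases of the other Vegfa window, neither of which is printed. The whole Ankrd37 window lies inside the annotated gene (chr8:45996902-46005707), as does the other Vegfa window inside Vegfa. Transcripts from starts further upstream can therefore run through these windows. The matches describe letters and not binding, which was not measured.

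Serum deprivation was accompanied by lower RNA of most members. In SD vs. 2% HS, 7 of 9 members were lower and 0 were higher at an adjusted p under 0.05, against 13.9% of all 15907 genes tested lower and 13.9% higher. The 7 were Hif1a, Egln1 and all 5 targets. Epas1 and Egln3 did not pass, although their fitted differences were also negative. The median log2 fold change was -0.41 over the 9 members and 0.0028 over all genes tested. The test was edgeR's quasi-likelihood F test over all genes with Benjamini-Hochberg adjustment, and each adjusted p below comes from it. In 5 members, Egln1, Vegfa, Bnip3, Ndrg1 and P4ha1, all 6 SD libraries were below all 6 libraries of 2% HS, which held for 7.42% of all genes tested. Beside these genes, the summed level of the 9 myotube markers was 41364 to 44112 CPM in 2% HS and 34012 to 36752 CPM in SD, with 3 of the 9 lower and 2 higher. Their median log2 fold change was -0.08, with 4 positive and 5 negative. Ttn, with 11879978 counts over the 30 libraries, weighs most in this sum. The 5 markers of undifferentiated myoblasts summed to 255 to 274 CPM in 2% HS and 217 to 244 CPM in SD, with 1 lower and 1 higher of the 4 tested and Calcr at 0 in every library. Here Pax7 weighs most, with 73596 counts. Neither pair of summed ranges overlapped, and the part of either sum in the members' difference was not tested.

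**Figure D1:**
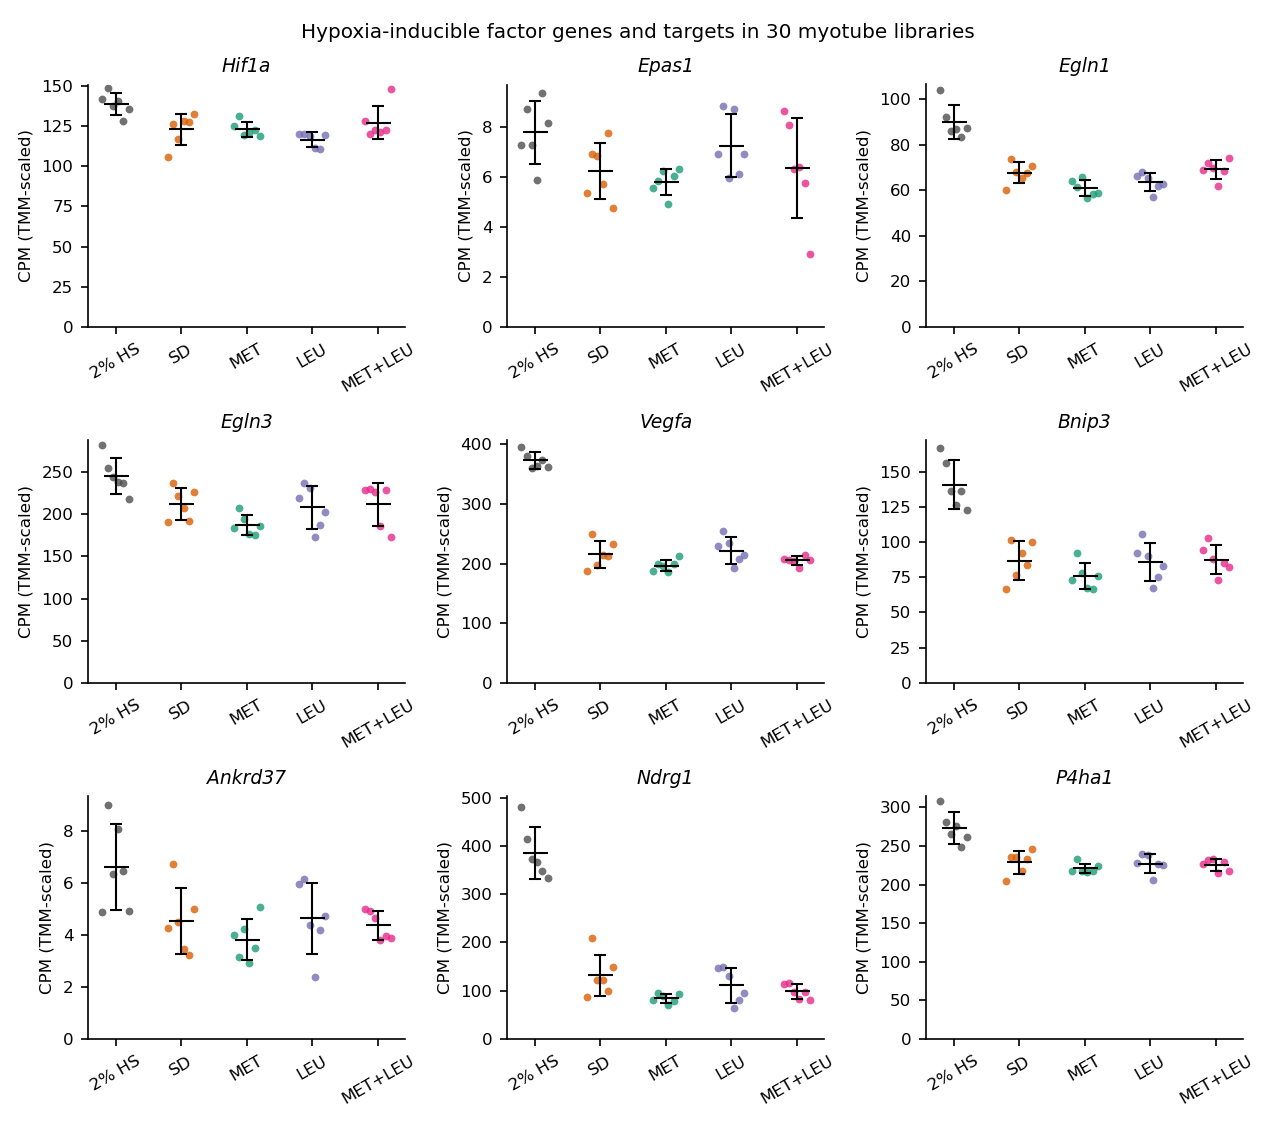
TMM-scaled CPM (vertical axis, from 0) of the 9 genes in the 6 libraries of each of the 5 groups, with points for libraries and bars for the mean and SD. The 2% HS group has the highest mean in each panel, and the 4 serum-free groups overlap one another in most panels.

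The alpha subunits moved little. Hif1a (ENSMUSG00000021109, GRCm38 chr12:73901375-73947530, plus strand) encodes the widely expressed alpha subunit. It was measured at 128, 139 and 149 CPM (lowest, median and highest library) in 2% HS and at 106, 127 and 132 CPM in SD. The ranges overlapped by a narrow margin, and the fitted log2 fold change in SD vs. 2% HS was -0.17 ± 0.05 (SE, adjusted p = 0.00297). MET libraries ranged from 119 to 131 CPM, LEU libraries from 110.3 to 119.9 CPM, and MET+LEU libraries from 120.3 to 147.7 CPM. All 6 MET+LEU libraries thus lay above all 6 LEU libraries by a narrow margin, without a call (log2 fold change 0.12 ± 0.05, adjusted p = 0.0985). All 6 LEU libraries lay below all libraries of 2% HS (log2 fold change -0.25 ± 0.05, adjusted p = 2.87e-05). The highest MET+LEU value belonged to replicate 6, and without that library the log2 fold change of MET+LEU vs. 2% HS went from -0.13 (adjusted p = 0.0245) to -0.18 (adjusted p = 0.000362).

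Epas1 (ENSMUSG00000024140, chr17:86753700-86833410, plus strand) encodes an alpha subunit best known from endothelium and other specialised cells. It was sparse here, at 5.87 to 9.39 CPM in 2% HS and 4.78 to 7.77 CPM in SD. The groups overlapped, and the log2 fold change of -0.31 (95% interval -0.62 to -0.01) had an adjusted p of 0.125. Without MET+LEU replicate 6, which had the lowest Epas1 level of the 30 libraries at 2.92 CPM, the same difference had an adjusted p of 0.0403. MET vs. 2% HS was the 1 comparison in which Epas1 passed the threshold (log2 fold change -0.41 ± 0.15, adjusted p = 0.0337). Epas1 did not pass in LEU vs. 2% HS (-0.09, adjusted p = 0.700).

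The prolyl hydroxylases are oxygen sensors and are themselves HIF targets in many cells. Egln1 (ENSMUSG00000031987, chr8:124908587-124949324, minus strand) encodes the main oxygen-sensing enzyme of most tissues. Its libraries were at 83.5, 87.2 and 104 CPM in 2% HS and at 60.3, 67.8 and 73.9 CPM in SD. The groups did not overlap, and Egln1 was lower in SD by a log2 fold change of -0.41 ± 0.05 (adjusted p = 8.33e-09). The other serum-free groups ran from 56.6 to 65.7 CPM in MET, 57.2 to 68.1 CPM in LEU and 61.7 to 74.2 CPM in MET+LEU. None of these reached the lowest library of 2% HS.

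Egln3 (ENSMUSG00000035105, chr12:54178981-54203860, minus strand) encodes the sister enzyme that is strongly inducible by hypoxia in many cells. It was measured at 218, 241 and 282 CPM in 2% HS and at 190, 215 and 237 CPM in SD. The groups overlapped, and the log2 fold change of -0.21 ± 0.08 missed the threshold (adjusted p = 0.0597). This call turned with the fit: the adjusted p was 0.0119 with only the groups compared, 0.0264 with DESeq2 and 0.0367 without MET+LEU replicate 6. MET held the lowest mean level of Egln3, 187 ± 12.2 CPM (SD, n = 6), and no MET library reached the lowest library of 2% HS (log2 fold change -0.39 ± 0.08, adjusted p = 0.000495).

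Of the targets, Ndrg1 differed most. Ndrg1 (ENSMUSG00000005125, chr15:66929318-66969640, minus strand) encodes a stress-responsive cytosolic protein linked to differentiation and lipid handling. Its libraries were at 333, 369 and 482 CPM in 2% HS and at 87.4, 123 and 208 CPM in SD. No SD library came near the 2% HS range, and the mean was 386 ± 54.2 against 132 ± 43.3 CPM (SD, n = 6). Ndrg1 was lower in SD by a log2 fold change of -1.55 ± 0.19 (0.341-fold, adjusted p = 3.46e-07). The lowest, median and highest libraries were at 69.5, 84.4 and 94.2 CPM in MET, 64.5, 113 and 150 CPM in LEU, and 81.2, 96.9 and 117 CPM in MET+LEU. Within SD, replicate 2 stood at 208 CPM and replicate 1 at 87.4 CPM.

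Vegfa (ENSMUSG00000023951, chr17:46016993-46032369, minus strand) encodes the secreted factor that drives vessel growth and is made by muscle fibres. Libraries of 2% HS were tight, at 360, 369 and 396 CPM, and those of SD were at 188, 214 and 249 CPM. The groups were far apart for their spread, and Vegfa was lower in SD by a log2 fold change of -0.79 ± 0.06 (0.579-fold, adjusted p = 1.56e-13). MET stood at 186, 197 and 213 CPM, LEU at 192, 222 and 254 CPM, and MET+LEU at 193, 206 and 215 CPM. No serum-free library of any group reached the lowest library of 2% HS.

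Bnip3 (ENSMUSG00000078566, chr7:138890836-138909519, minus strand) encodes a receptor on the outer mitochondrial membrane that promotes mitophagy. It was measured at 123, 136 and 167 CPM in 2% HS and at 66.6, 87.9 and 101 CPM in SD. The groups did not overlap, and the log2 fold change was -0.70 ± 0.11 (0.616-fold, adjusted p = 2.28e-05). Over the other serum-free libraries Bnip3 ran from 66.8 to 92.3 CPM in MET, 67.3 to 106 CPM in LEU and 73.2 to 103 CPM in MET+LEU, again below every library of 2% HS.

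P4ha1 (ENSMUSG00000019916, chr10:59323296-59373304, plus strand) encodes the catalytic subunit of the collagen prolyl hydroxylase in the endoplasmic reticulum. Its libraries were at 248, 271 and 309 CPM in 2% HS and at 205, 234 and 247 CPM in SD. The difference was small and the spread smaller, with a log2 fold change of -0.26 ± 0.04 (adjusted p = 2.07e-06). MET, LEU and MET+LEU libraries lay between 206 and 239 CPM, below all libraries of 2% HS.

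Ankrd37 (ENSMUSG00000050914, chr8:45996902-46005707, minus strand) encodes a small ankyrin repeat protein and is a widely used marker of HIF activity. It was sparse, at 4.89, 6.40 and 8.98 CPM in 2% HS and at 3.23, 4.38 and 6.71 CPM in SD. The groups overlapped, and the log2 fold change was -0.55 ± 0.18 (adjusted p = 0.0173). The call rested on single libraries, since the adjusted p was 0.0565 without replicate 2 and 0.0532 without replicate 4 of 2% HS. Exons of Ankrd37 overlap opposite-strand exons of Lrp2bp by 349 bases and of Ufsp2 by 57 bases. Lrp2bp drew 471 counts over the 30 libraries and Ufsp2 drew 17069, against 2223 for Ankrd37. The strand setting of the counting is not given in the sources used here, so reads of the overlap cannot be told apart.

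Between genes, levels were compared as RPKM, that is CPM per kilobase of exons. In 2% HS the order was Egln3 (92.3), Vegfa (86.9), P4ha1 (66.5), Bnip3 (62.1), Ndrg1 (58.5), Egln1 (25.04), Hif1a (23.5), Ankrd37 (4.29) and Epas1 (1.39). In SD, Vegfa stood at 50.4 RPKM, below P4ha1 at 55.6 RPKM, and Ndrg1 stood at 19.96 RPKM, beside Hif1a at 20.8 RPKM. These are mean levels without a test, and RPKM depends on the annotated exon length.

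**Figure D2:**
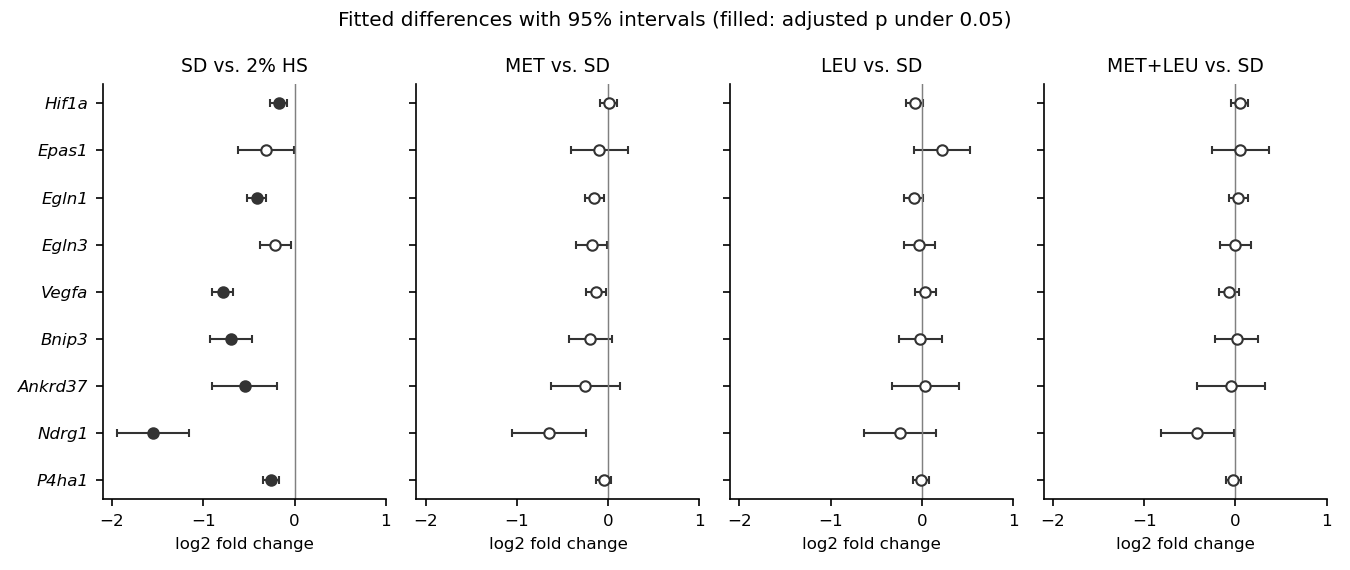
Fitted log2 fold changes (horizontal axis) with 95% intervals of the 9 genes in 4 comparisons, filled where the adjusted p was under 0.05. In SD vs. 2% HS, 7 points are filled and all 9 lie left of 0, whereas no point is filled in MET vs. SD, LEU vs. SD or MET+LEU vs. SD.

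No member passed the threshold against SD in any treated group. In MET vs. SD, 0 of 9 were called, against 0.157% of all genes tested. In LEU vs. SD it was 0 of 9, against 0.553%, and in MET+LEU vs. SD 0 of 9, against 18.4%. DESeq2 and limma-voom also called 0 members in each of the 3 comparisons. At an unadjusted p under 0.05, 4 members of 9 were counted in MET vs. SD, 0 in LEU vs. SD and 1 in MET+LEU vs. SD, beside 10%, 9.98% and 31.2% of all genes tested. Without MET+LEU replicate 6 the members called stayed at 0, while the calls over all genes went from 25 to 160 in MET vs. SD, from 88 to 269 in LEU vs. SD and from 2931 to 2175 in MET+LEU vs. SD.

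The 4 members in MET vs. SD were Ndrg1, Egln1, Egln3 and Vegfa, each with a negative fitted difference. For Ndrg1 the log2 fold change was -0.65 (95% interval -1.05 to -0.25, adjusted p = 0.201). It was -0.47 without SD replicate 2, the highest Ndrg1 library of SD. Egln1 had -0.15 (interval -0.26 to -0.05, adjusted p = 0.264), Egln3 -0.18 (adjusted p = 0.464) and Vegfa -0.13 (adjusted p = 0.398). These values give the size that the data allow and no call.

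In MET+LEU vs. SD the intervals were narrow around 0 for several members. The 95% interval of the log2 fold change was -0.10 to 0.06 for P4ha1, -0.04 to 0.14 for Hif1a, -0.07 to 0.14 for Egln1 and -0.18 to 0.04 for Vegfa. They were wider for Bnip3 (-0.22 to 0.25), Epas1 (-0.26 to 0.37) and Ankrd37 (-0.42 to 0.32). Ndrg1 had a log2 fold change of -0.42 (interval -0.82 to -0.02, adjusted p = 0.140), which was -0.25 without SD replicate 2 (adjusted p = 0.402). A p that misses the threshold does not show that the levels were equal.

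Against 2% HS, each serum-free group had low members. In MET+LEU vs. 2% HS, 8 of 9 were lower, all except Epas1, against 20.3% of all genes tested. The largest differences were those of Ndrg1 (log2 fold change -1.97 ± 0.19, adjusted p = 5.22e-09) and Vegfa (-0.86 ± 0.06, adjusted p = 1.36e-14). Without MET+LEU replicate 6, 7 members were lower, since Egln3 went from an adjusted p of 0.0397 to 0.0936. The 5 genes whose SD libraries were all below 2% HS also had all 6 MET+LEU libraries below it, which held for 9.51% of all genes tested.

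MET vs. 2% HS called all 9 members lower, against 17.5% of genes tested, and LEU vs. 2% HS called 8, all except Epas1, against 15.3%. With 1 library left out, the numbers ran from 8 to 9 and from 6 to 8. Ndrg1 again had the largest log2 fold changes, -2.20 ± 0.20 in MET and -1.79 ± 0.19 in LEU. These comparisons share the libraries of 2% HS with one another and with SD vs. 2% HS, so they are not separate evidence.

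Between the treated groups, 1 member passed the threshold. LEU vs. MET called 0 of 9, against 0.0754% of genes tested, and MET+LEU vs. LEU called 0, against 6.28%. At an unadjusted p under 0.05 the numbers were 3 in LEU vs. MET, beside 8.68% of genes tested, and 2 in MET+LEU vs. LEU, beside 21.5%, and DESeq2 and limma-voom called 0 in both. In MET+LEU vs. MET the 1 member called was Egln1, higher in MET+LEU by a log2 fold change of 0.18 ± 0.05 (adjusted p = 0.0208), where 5.54% of genes tested were higher. That call was lost without MET replicate 4, 5 or 6 and without MET+LEU replicate 2 or 6. The interaction of metformin and leucine called 0 members, against 0.0503% of genes tested, and 1 member, Egln1, had an unadjusted p under 0.05, beside 8.73% of genes tested (log2 interaction 0.27 ± 0.07, adjusted p = 0.249). DESeq2 and limma-voom called 0 members in the interaction.

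Over the 10 pairs of groups and 9 members, 33 of 90 differences passed the threshold, 32 of them between 2% HS and a serum-free group. In the order of group means, 2% HS stood first for each of the 9 members. It differed from the next group for 7 members and not for Epas1 or Egln3. No 2 neighbouring serum-free groups in the order differed beyond their spread for any member.

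Libraries of 1 group that were high for one target tended to be high for others. After the group means were removed, the deviations of log2 CPM of Ndrg1 over 30 libraries had a Pearson r of 0.863 with Egln3, 0.863 with Vegfa and 0.862 with Bnip3. They had an r of 0.364 with Hif1a and 0.189 with Epas1. With members other than Ndrg1 and Epas1, the r of Hif1a ran from 0.124 (Ankrd37) to 0.571 (Egln1). Hif1a and Epas1 had an r of -0.402. For both genes the largest deviation was that of MET+LEU replicate 6, at 0.22 for Hif1a and -1.02 for Epas1. How far this r rests on that library was not tested. These are descriptions over libraries that share depth and culture handling, with no test.

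**Figure D3:**
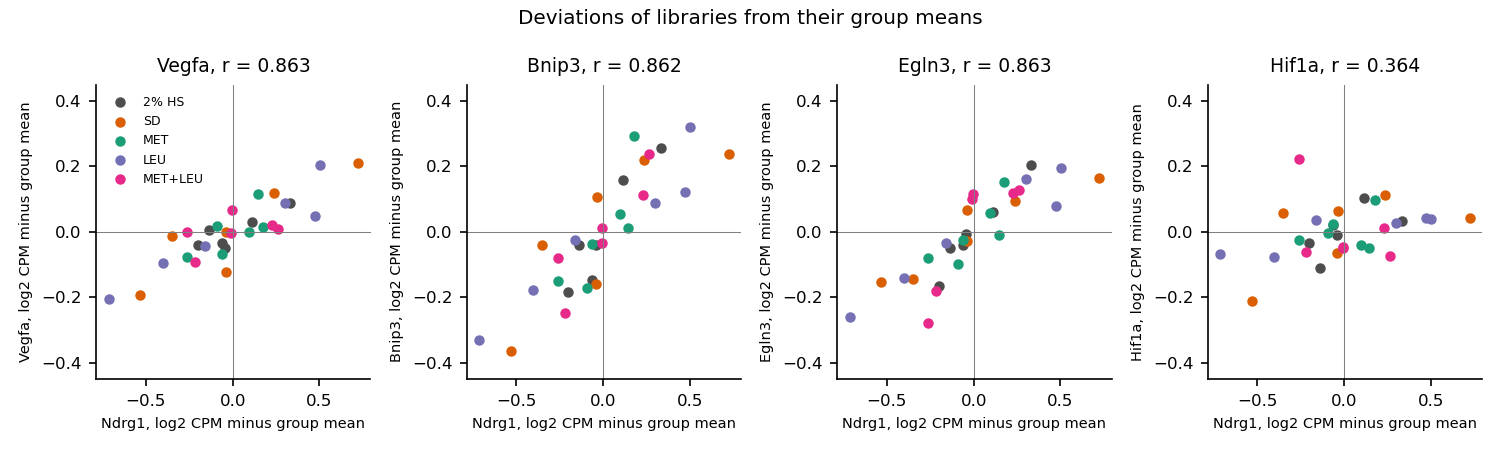
Deviation of each of the 30 libraries from its group mean in log2 CPM, for Ndrg1 (horizontal axis) against Vegfa, Bnip3, Egln3 and Hif1a (vertical axes), coloured by group. The points rise together in the first 3 panels (r = 0.863, 0.862 and 0.863) and are more scattered for Hif1a (r = 0.364).

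The same libraries recurred at the ends. LEU replicate 2 was the highest LEU library for 8 of the 9 members and LEU replicate 4 the lowest for 7. SD replicate 2 was the highest SD library for 6 members and SD replicate 1 the lowest for 7. In 2% HS, replicate 1 was the highest for 6. Some replicate numbers recurred across groups. In MET, replicate 2 was the highest for 5 members and replicate 4 the lowest for 6. In MET+LEU, replicate 2 was the highest for 3 and replicate 4 the lowest for 5. This did not hold in every group: replicate 4 was the lowest for 0 members in SD and 1 in 2% HS, and replicate 2 the highest for 2 in 2% HS. What sets these libraries apart was not tested.

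The genes whose log2 CPM ran most like a member over the 30 libraries, by Pearson r, were in part other genes of the pathway lists. For Ndrg1 they were Ero1l (r = 0.986), an oxidase of protein folding also named Ero1a, and Hk2 (r = 0.984), a hexokinase of muscle. For Vegfa they were Ndrg1 (r = 0.971) and Ero1l (r = 0.970). For Bnip3 they were Pdk1 (r = 0.971), a kinase that restrains entry of pyruvate into mitochondria, and Vldlr (r = 0.960), a lipoprotein receptor. For Egln1 they were Hk2 (r = 0.950) and Pdk1 (r = 0.950), for P4ha1 Pdk1 (r = 0.942) and Bnip3 (r = 0.919), and for Egln3 Bnip3 (r = 0.865) and Ak4 (r = 0.859).

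The alpha subunits and Ankrd37 were nearest to genes outside these lists. Hif1a ran most like Kansl1l (r = 0.863) and Creb1 (r = 0.858). Epas1 ran most like Ube3b (r = 0.692) and Trp53inp2 (r = 0.690), and Ankrd37 most like Zfp385c (r = 0.779) and Gpr35 (r = 0.765). By rank the likeness of Epas1 was weaker, with a Spearman rho of 0.422 for Ube3b and 0.498 for Trp53inp2. Both sparse members had the lowest values of r. The libraries share the difference between 2% HS and the serum-free groups, and each r describes these 30 libraries.

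The lists of other pathway genes, also chosen with earlier results of these data known, held 77 genes, of which 70 were tested. In SD vs. 2% HS, 39 of 70 (55.7%) were lower and 10 (14.3%) were higher, beside 13.9% of all genes tested in each direction. Values in parentheses for these genes are log2 fold changes ± SE. The median log2 fold change was -0.20 over the 70 genes and 0.0028 over all genes tested. Arnt, the common beta subunit, was at 132 ± 2.60 CPM in 2% HS and 133 ± 4.75 CPM in SD (SD, n = 6), and was not called, nor was Arnt2, the other beta subunit gene tested (0.20 ± 0.11, adjusted p = 0.190). Hif3a drew 27 counts in all 30 libraries together and was not tested. Of 7 genes of oxygen sensing and the VHL ligase, 1 was higher, Hif1an, the asparagine hydroxylase that blocks the alpha subunit's activation domain (log2 fold change 0.18 ± 0.04, adjusted p = 0.000384). Of 3 coactivator and modulator genes, 1 was higher, Cited2, which competes with HIF for a coactivator (0.14 ± 0.05, adjusted p = 0.0271). The call of Cited2 was lost without 2% HS replicate 1, 3 or 5 or SD replicate 4 (adjusted p 0.0587 to 0.0766).

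Genes of glucose uptake and glycolysis moved in 1 direction. Of 22 tested, 18 were lower in SD and 0 higher, with a median log2 fold change of -0.39. The glucose transporter gene Slc2a3 had -1.20 ± 0.21, at a low level of 3.65 CPM in 2% HS and 1.58 CPM in SD. Ppp1r3c, a glycogen-targeting phosphatase subunit, had -1.17 ± 0.18, and Pfkfb3, which sets the level of an activator of glycolysis, had -0.99 ± 0.10 (adjusted p = 1.11e-08). Of 6 mitochondrial targets, 4 were lower and 0 higher, among them the adenylate kinase Ak4 (-0.97 ± 0.17), Fam162a (-0.40 ± 0.07) and Higd1a (-0.40 ± 0.09).

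Other groups held calls in both directions, in unequal shares. Of 12 genes of chromatin, transcription and other functions, 10 were lower and 1 higher, and the largest differences were those of the carbonic anhydrases Car12 (-2.02 ± 0.16) and Car9 (-1.33 ± 0.20) and of Ddit4 (-0.87 ± 0.10), an inhibitor of mTORC1. Car9 went from 41.5 ± 6.38 CPM in 2% HS to 16.5 ± 4.80 CPM in SD (SD, n = 6). Of 8 collagen modification genes, 3 were lower and 3 higher. Ero1a was lower (-1.75 ± 0.18), from 144 ± 22.7 to 42.9 ± 13.7 CPM, and so was Loxl2 (-0.50 ± 0.11), a collagen cross-linking enzyme. P4ha3, which encodes an alternative catalytic subunit to P4ha1, was higher in SD (1.10 ± 0.07, adjusted p = 1.32e-17), from 11.04 ± 0.861 to 23.7 ± 1.20 CPM.

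Relatives of Vegfa also parted. Of 6 VEGF family ligands and receptors tested, 3 were higher and 2 lower. The lymphatic growth factor genes Vegfd (log2 fold change 1.29 ± 0.14) and Vegfc (0.72 ± 0.15) were higher in SD, and the placental growth factor gene Pgf was lower (-0.96 ± 0.11). All 3 stayed under 10 CPM in the mean of each group. The main receptor genes were nearly without counts, with 3 counts for Kdr, 2 for Flt4 and 177 for Flt1 over the 30 libraries. Among the other secreted targets, Adm, a vasodilator peptide gene, was lower (-1.49 ± 0.12), and Angptl4, an inhibitor of lipoprotein lipase that PPAR factors also induce, was higher (1.83 ± 0.07, adjusted p = 1.48e-25), from 11.2 ± 1.57 to 39.7 ± 2.35 CPM.

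**Figure D4:**
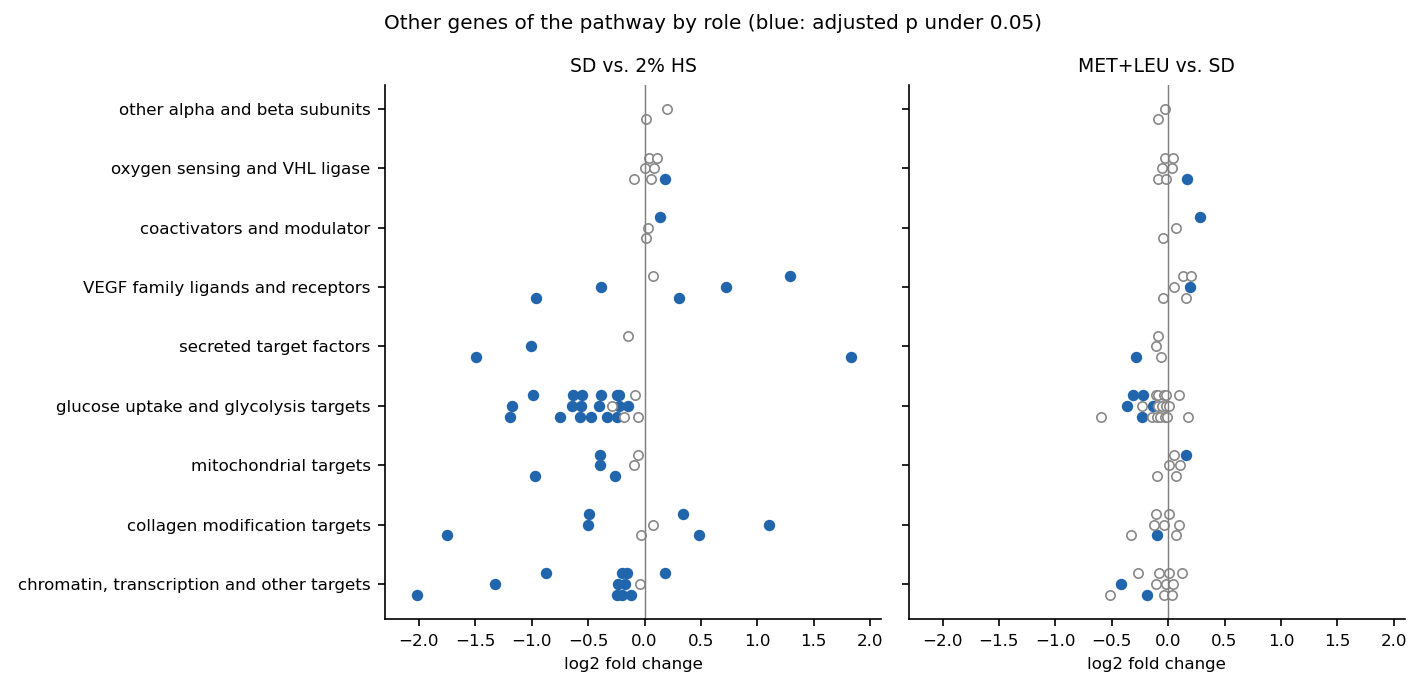
Log2 fold changes (horizontal axis) of the 70 other pathway genes tested, in rows by role, in SD vs. 2% HS (left) and MET+LEU vs. SD (right), filled blue where the adjusted p was under 0.05. On the left 39 genes are called lower and 10 higher, and on the right 9 lower and 4 higher, on a narrower range.

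Other pathway genes were also counted against SD. In MET vs. SD, 2 of 70 were lower and 0 higher, beside 0.157% of all genes tested called in either direction. They were the glycogen synthase gene Gys1 (-0.19 ± 0.04, adjusted p = 0.0137) and the repressor gene Bhlhe40 (-0.19 ± 0.04, adjusted p = 0.0159). The count was 0 without SD replicate 2 or without MET replicate 4, 1 without MET replicate 3, and 6 without MET+LEU replicate 6, and DESeq2 called 8. In LEU vs. SD, 1 of 70 was called, beside 0.553% of all genes tested. It was Cited2, higher by 0.24 ± 0.05 (adjusted p = 0.00473).

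In MET+LEU vs. SD, 9 of 70 (12.9%) were lower and 4 (5.71%) higher, beside 7.8% of all genes tested lower and 10.6% higher. In either direction 13 of 70 were called, close to the 18.4% of all genes tested. Cited2 was higher (0.28 ± 0.05, adjusted p = 2.81e-05), with 80.5 ± 3.25 CPM in SD and 97.9 ± 6.21 CPM in MET+LEU (SD, n = 6). The other 3 were Nrp1, a VEGF coreceptor gene (0.19 ± 0.06), Elob, a subunit gene of the VHL ligase (0.17 ± 0.05), and the mitochondrial protease gene Lonp1 (0.15 ± 0.05). Among those lower were Ddit4 (-0.42 ± 0.10, adjusted p = 0.00403), the lactate transporter gene Slc16a3 (-0.36 ± 0.10), the glucose transporter gene Slc2a1 (-0.32 ± 0.10), the enolase gene Eno1 (-0.23 ± 0.04), the heme oxygenase gene Hmox1 (-0.19 ± 0.05) and P4hb (-0.10 ± 0.03), a subunit gene of the collagen prolyl hydroxylase. Without MET+LEU replicate 6 the count was 4 higher and 6 lower, and Slc2a1 (adjusted p = 0.0611) and P4hb (adjusted p = 0.0635) no longer passed. Slc2a1 also missed the threshold without SD replicate 2 (adjusted p = 0.0706). So did Nrp1 without MET+LEU replicate 5, Elob without SD replicate 4, Lonp1 without SD replicate 2 or 5, and P4hb without SD replicate 3 or 6 or MET+LEU replicate 5 (adjusted p 0.0531 to 0.0914). Beside these, the 8 cycling cell markers were all lower in MET+LEU vs. SD, with a summed level of 134 to 168 CPM against 181 to 254 CPM in SD, and the mitochondrial ribosomal RNAs took 0.281% to 0.367% of counts in SD and 0.649% to 0.760% in MET+LEU replicates 1 to 5. The part of either in these results was not tested.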

How the data were processed

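RNA-sequencing libraries of C2C12 myotubes, 5 groups of 6, were analysed. Per the labels, total RNA was depleted of ribosomal RNA, libraries were stranded and reads were paired. The submitters' processing notes name cutadapt 1.16, STAR 2.7.6a, featureCounts 1.6.3, DESeq2 1.30.1 and build GRCm38. The annotation release and the strand setting are not given in the sources used here. The authors deposited raw read counts per gene, whole numbers without normalization, for 55487 Ensembl genes, of which 55141 matched GENCODE M21 and 346, with 0.0268% of the counts, did not.

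The analysis used R 4.3.3 and edgeR 4.0.16. The filterByExpr function (minimum count 10, minimum total count 15) retained 15907 genes. After TMM scaling, glmQLFit with the robust option was run on the 30 libraries with 1 mean per group, and each difference was tested by quasi-likelihood across all genes. P-values were adjusted by Benjamini-Hochberg, with a threshold of 0.05. The standard error is the absolute log2 fold change divided by the square root of F. The common biological coefficient of variation was 0.0709. The fits were tested on simulated counts of 15907 genes, with 200 changed 1.5-fold up or down in MET+LEU. In MET+LEU vs. SD, edgeR recovered 152 of the 200 (76%), and 12 of its 164 calls were false. DESeq2 recovered 151, with 23 of 174 calls false, and limma-voom 148, with 11 of 159 false. Smaller changes were not simulated. Alternatives were other scalings, DESeq2 1.42.0, limma 3.58.1 (voom with sample weights), a looser filter, a threshold of 0.01, a fit of the compared groups alone, a block for the replicate number, and each library left out in turn.

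The members and gene lists were chosen with earlier results of these data known. The genes named are the 9 members. From each list of other pathway genes, up to 3 past the threshold with the largest absolute log2 fold change were named for MET+LEU vs. SD and for SD vs. 2% HS, and up to 5 for the single compounds against SD. For each member the 2 genes with the highest Pearson r of log2 CPM (prior count 2) were named. Arnt, Arnt2, Hif3a, Kdr, Flt1, Flt4, Calcr and the cycling cell markers fall outside this rule. An item that the rule also picks is not reported here. The 2 most alike libraries of a group still differed by a chi-square per degree of freedom of 2.33, so no library was counted as a repeat.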

Additional observations from a re-analysis of the deposited data

Results flagged for a closer look

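Of 45 sets of 6 libraries, 9 members in 5 groups, 1 held a library that stood apart by Dixon's criterion at the 95% level. It was Hif1a in MET+LEU, where replicate 6 had 147.7 CPM and the other libraries lay between 120 and 128 CPM. By chance about 5% of sets would be marked. This is the library in which mitochondrial ribosomal RNA took 7.64% of the counts, and in it Epas1 had its lowest level of the group, 2.92 CPM. Whether the share of mitochondrial ribosomal RNA bears on either level was not tested.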

How the results depend on the processing

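The counts of members lower in SD vs. 2% HS (6 to 8 of 9), called in MET, LEU or MET+LEU vs. SD and in the interaction (0) and lower in MET+LEU vs. 2% HS (6 to 8) stayed within 1.5 times of those reported under the other scalings, tools, filter, threshold and samples tried. With libraries left out in turn they ran from 6 to 9 in SD vs. 2% HS, from 7 to 9 in MET+LEU vs. 2% HS, and from 28 to 34 for pairs of groups, and were 0 in the others. Other pathway genes called in MET vs. SD numbered 8 by DESeq2 and 0 at a threshold of 0.01 against 2 reported, and 0 to 6 with libraries left out. In LEU vs. SD limma-voom called 2 against 1. In MET+LEU vs. SD, 7 were called with only the groups compared and 5 at a threshold of 0.01 against 13, and 10 to 18 with libraries left out. The cause of these moves was not tested, except that a stricter threshold keeps fewer genes.

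Fitted differences that changed sign were near 0 and were not called in either setting. With limma-voom, Hif1a had -0.0208 in MET vs. SD and -0.00419 in MET+LEU vs. SD, and in the latter Egln1 had -0.00521, Egln3 0.00998, Bnip3 -0.0329 and Ankrd37 0.00748. Upper-quartile scaling gave Bnip3 -0.000848 and a fit of the compared groups alone gave Egln3 0.000316. With libraries left out, the ranges that crossed 0 in MET+LEU vs. SD were -0.00239 to 0.0647 for Hif1a, -0.0567 to 0.186 for Epas1, -0.00857 to 0.0548 for Egln1, -0.0413 to 0.0421 for Egln3, -0.0606 to 0.0575 for Bnip3 and -0.13 to 0.0874 for Ankrd37. In LEU vs. SD they were -0.0653 to 0.0218 for Egln3, -0.0826 to 0.0448 for Bnip3, -0.0541 to 0.187 for Ankrd37 and -0.0375 to 0.0180 for P4ha1, and in MET vs. SD -0.0342 to 0.0301 for Hif1a.

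Calls of single members were lost or gained at the edge of the threshold. Hif1a in MET+LEU vs. 2% HS had an adjusted p of 0.0539 without MET+LEU replicate 3. Egln3 in that comparison missed the threshold without 2% HS replicate 1 or 2, or without MET+LEU replicate 4 or 6 (adjusted p 0.0555 to 0.0936), and passed in SD vs. 2% HS without 2% HS replicate 6, SD replicate 2, LEU replicate 4 or MET+LEU replicate 6 (0.0343 to 0.0411). Epas1 passed in MET+LEU vs. 2% HS without MET+LEU replicate 1 (adjusted p 0.0474).

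Over all genes tested, replicate numbers showed little pairing: deviations of same-numbered libraries had a mean correlation of 0.0157, with 2 of 60 over 0.1, against -0.0031 for different numbers. Among the members, however, replicate 2 was above its group mean in each group for every gene except Hif1a and Ankrd37. Whether replicate numbers pair the libraries for these genes was not tested. A replicate block in the fit gave Egln3 an adjusted p of 0.0162 in SD vs. 2% HS, against 0.0597. With the replicate block, 8 members were lower in SD vs. 2% HS against 7, 8 in MET+LEU vs. 2% HS, 34 pairs of groups were called against 33, and 0 members were called in MET, LEU or MET+LEU against SD or in the interaction. Of the other pathway genes, 49 were called in SD vs. 2% HS, 14 with MET+LEU, 3 with MET and 1 with LEU, each of these 3 against SD. Epas1 and Ankrd37 were at under 10 CPM, and their intervals are the widest after Ndrg1. The part of depth in these widths was not tested.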
